A study of Mus musculus with 12 samples.

Results

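The genes described here are 9 ligands and receptors of the vascular endothelial growth factor (VEGF) and angiopoietin systems, Vegfa, Pgf, Kdr, Flt1, Nrp1, Angpt1, Angpt2, Tek and Tie1, measured in isolated mouse glomeruli. They were chosen by name. Where several probe sets carried a symbol and no other, the one with the highest average signal stands for the gene. All 9 were found among the 18193 genes on the array, through 18 probe sets, and all 9 were among the 11920 genes that exceeded the table median of 3.03 log2 on at least 3 arrays and were tested. The mice were female and 8 to 10 weeks old, and their glomeruli make up 4 groups of 3 arrays. The groups were C57BL6J anti-GBM GN, C57BL6J control, 129S2SvPAs anti-GBM GN and 129S2SvPAs control (the control labels write this strain as 129S2SvPAS). The labels do not say whether each array holds 1 mouse, and p-values measure only the spread between these arrays. Anti-GBM GN is a glomerulonephritis brought about by serum against the glomerular basement membrane, given here on days 0, 1 and 2, with kidneys taken on day 4. Glomeruli were separated with sieves of 100 and 45 µm, and the labels repeat the serum protocol for control mice without saying what these received. The series title names the question as the influence of genetic background on this disease.

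In the glomerulus, podocytes secrete VEGF-A across the basement membrane to the fenestrated endothelium. There the tyrosine kinase receptor VEGFR2 (gene Kdr) carries most of the signal, VEGFR1 (Flt1) binds the ligand tightly and acts largely as a decoy, and neuropilin 1 (Nrp1) is a co-receptor. Angiopoietin 1 (Angpt1), made by perivascular cells and podocytes, activates the endothelial receptor TIE2 (Tek) and steadies the vessel wall, while angiopoietin 2 (Angpt2), released by activated endothelium, often opposes it, and TIE1 (Tie1) modifies the signal of TIE2.

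Vegfa, Kdr and Nrp1 fell in anti-GBM GN on average over both strains, as did Angpt1, while Flt1 did not pass the test, so the sequences before the start are shown for those 3 genes and for Flt1. The windows hold the 250 bases before a RefSeq start on GRCm38.p6, 5′ to 3′ on the strand of the gene, with GC boxes (GGGCGG) and ETS sites (AGGAAG), searched on both strands, in capitals.
Vegfa: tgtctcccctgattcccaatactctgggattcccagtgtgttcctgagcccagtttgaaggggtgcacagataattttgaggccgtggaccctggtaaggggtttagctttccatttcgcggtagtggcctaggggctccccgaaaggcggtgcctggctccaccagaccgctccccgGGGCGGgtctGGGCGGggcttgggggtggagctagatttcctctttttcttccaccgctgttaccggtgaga
Kdr: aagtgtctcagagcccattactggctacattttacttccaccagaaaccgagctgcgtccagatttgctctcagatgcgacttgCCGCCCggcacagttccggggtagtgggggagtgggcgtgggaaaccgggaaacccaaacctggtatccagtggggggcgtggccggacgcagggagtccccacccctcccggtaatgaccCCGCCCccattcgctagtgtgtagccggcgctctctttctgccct
Nrp1: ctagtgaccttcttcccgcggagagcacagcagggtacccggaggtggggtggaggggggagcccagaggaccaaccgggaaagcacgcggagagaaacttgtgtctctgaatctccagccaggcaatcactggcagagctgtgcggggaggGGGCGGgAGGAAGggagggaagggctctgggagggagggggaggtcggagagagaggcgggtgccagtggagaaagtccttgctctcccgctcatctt
Flt1: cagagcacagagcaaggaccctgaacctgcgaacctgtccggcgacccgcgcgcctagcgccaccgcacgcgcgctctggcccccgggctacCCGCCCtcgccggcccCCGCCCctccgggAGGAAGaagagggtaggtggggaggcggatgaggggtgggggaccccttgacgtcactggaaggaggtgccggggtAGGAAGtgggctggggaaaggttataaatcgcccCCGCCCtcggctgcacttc
They lie at chr17:46032378-46032627 (minus strand), chr5:75978456-75978705 (minus strand), chr8:128358823-128359072 (plus strand) and chr5:147726012-147726261 (minus strand). The Vegfa window lies before the annotated gene, while those of Kdr, Nrp1 and Flt1 lie inside the outer limits of their annotated genes. A GC box was found 2 times in the Vegfa window, 2 times in that of Kdr, 1 time in that of Nrp1 and 3 times in that of Flt1, and 32.7% of 32851 such mouse windows held at least 1. The ETS site was found 1 time in the Nrp1 window and 2 times in the Flt1 window, against a share of 29.5% of all windows with at least 1, and its letters were not in those of Vegfa and Kdr. No GC box overlapped an ETS site in these windows. The hypoxia response core ACGTG, held by 16.6% of all windows, was in none of these 4, but the other Vegfa window, which lies inside the gene and is not shown, held it 1 time, 211 bases before its start. On the same build Vegfa lies at chr17:46016993-46032377, Kdr at chr5:75932827-75979072, Flt1 at chr5:147561604-147726438 and Nrp1 at chr8:128358591-128505476. The others are Pgf at chr12:85166637-85177785, Angpt1 at chr15:42424667-42676977, Angpt2 at chr8:18690263-18741562, Tek at chr4:94739086-94874976 and Tie1 at chr4:118471191-118489849. Of the 9 genes 7 had a window in the RefSeq table.

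Values are log2 probe set signals, which ran from 1.12 to 15.02 with array medians of 2.99 to 3.06, and 1 unit is a factor of 2. A value near or below 3 is called the floor here, for low signal, although some probe sets lay well under it. Levels of different probe sets are not compared, and only their changes are. Markers of the glomerulus were present. All 17 endothelial markers measured exceeded the table median on all 12 arrays, as did the podocyte gene Nphs1, which ran from 3.42 to 8.06. Proximal tubule markers were high as well, with Slc34a1 between 11.85 and 12.90 on every array. After each marker was centred on its 12-array mean, the endothelial marker mean ranged from 0.292 to 0.982 in C57BL6J anti-GBM GN, from -0.0984 to 0.464 in C57BL6J control, from 0.0492 to 0.365 in 129S2SvPAs anti-GBM GN and from -1.60 to -0.345 in 129S2SvPAs control. Among the 129S2SvPAs controls replicate 2 was the highest in this measure. Within 129S2SvPAs anti-GBM GN, replicate 1 had a Pearson's r of 0.974 and 0.973 to the other 2 arrays, against 0.994 between those, taken over genes, which do not count as replicates. In such bulk samples, fewer cells of a type and less RNA per cell cannot be told apart.

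**Figure D1:**
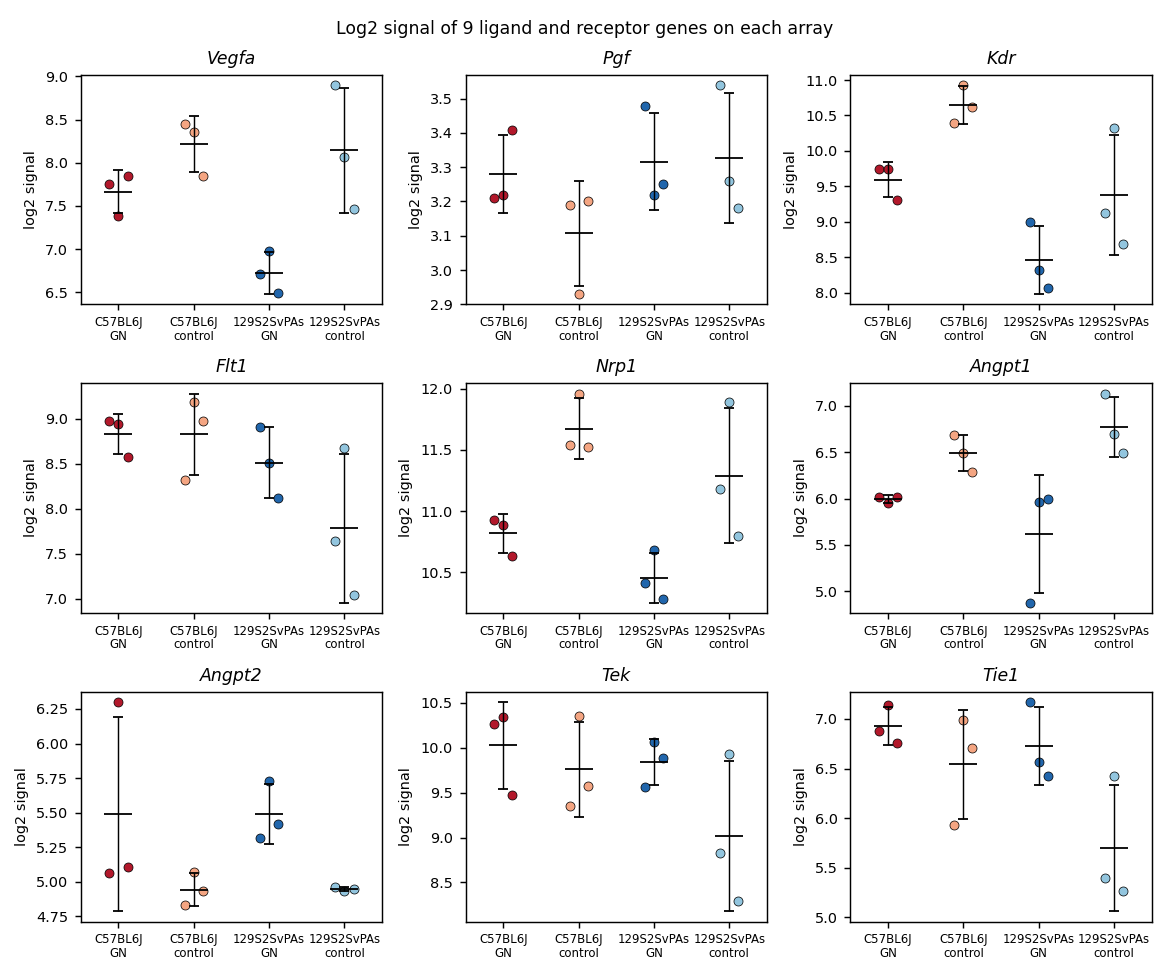
Log2 signal (y axis of each panel, own scale) of each of the 9 genes on each of the 12 arrays, by group (x axis; GN is anti-GBM GN). Points are arrays, and the bars give the group mean and SD (n = 3). Vegfa in 129S2SvPAs anti-GBM GN, at 6.49 to 6.98, lies below all other arrays, and Angpt2 has a single high array at 6.30 in C57BL6J anti-GBM GN.

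The first comparison asked how the VEGF ligands responded to anti-GBM GN. Vegfa, the main VEGF ligand of the glomerulus, was at 6.71, 6.98 and 6.49 log2 in 129S2SvPAs anti-GBM GN, against 8.90, 8.07 and 7.46 in 129S2SvPAs control. The groups did not overlap. In C57BL6J it was at 7.76, 7.38 and 7.85 in anti-GBM GN and at 8.45, 8.36 and 7.85 in control, where one value was shared by both groups. Vegfa fell by 1.42 log2 in 129S2SvPAs (SE 0.32, 2.67-fold, adjusted p = 0.00937 in limma, Benjamini-Hochberg over all 11920 genes). In C57BL6J the value was -0.56 (SE 0.32, adjusted p = 0.358), and the average over both strains fell by 0.99 (SE 0.22, adjusted p = 0.00811). From high to low the group means ran C57BL6J control, 129S2SvPAs control, C57BL6J anti-GBM GN and 129S2SvPAs anti-GBM GN, and only the last step was free of overlap between arrays. The second Vegfa probe set, with lower signal, gave -0.86 (SE 0.18, adjusted p = 0.00821 over all probe sets) in 129S2SvPAs and -0.29 (SE 0.18, adjusted p = 0.438) in C57BL6J.

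The fall of Vegfa in 129S2SvPAs was no longer past the threshold in a fit restricted to both groups compared (adjusted p = 0.0624), with the proximal tubule marker mean as a covariate (-1.80, adjusted p = 0.25) or with the endothelial marker mean as a covariate (-1.65, adjusted p = 0.113). The proximal tubule marker mean was itself lower in 129S2SvPAs anti-GBM GN, at -0.468 to -0.278 against 0.173 to 0.333 in 129S2SvPAs control, and its part in the result was not tested beyond these fits. Podocyte markers, which mark the cells known to make most glomerular VEGF-A, had a marker mean of -1.07 to -0.734 in 129S2SvPAs anti-GBM GN and of -0.823 to -0.061 in 129S2SvPAs control. In C57BL6J it ran from -0.127 to 0.853 in anti-GBM GN and from 0.608 to 1.29 in control. Of the 14 podocyte markers tested, Nphs1, Cdkn1c, Thsd7a and Ddn fell on average over the strains and Podxl and Clic5 rose. Among all genes tested 13.6% fell and 13% rose on average.

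Pgf, placental growth factor, which binds VEGFR1 and not VEGFR2, lay at the floor on every array. Its values were 3.21, 3.22 and 3.41 in C57BL6J anti-GBM GN, against 3.19, 2.93 and 3.20 in C57BL6J control. In 129S2SvPAs they were 3.48, 3.22 and 3.25 in anti-GBM GN and 3.54, 3.26 and 3.18 in control. The average response was 0.08 (SE 0.09, adjusted p = 0.582), with a 95% interval of -0.13 to 0.29. At so low a signal a fall of the transcript may go unseen, and no rise was called.

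The receptors of VEGF did not move as one. Kdr was at 9.74, 9.74 and 9.31 log2 in C57BL6J anti-GBM GN, against 10.40, 10.93 and 10.62 in C57BL6J control, with no overlap. In 129S2SvPAs it was at 9, 8.32 and 8.07 in anti-GBM GN and at 9.13, 10.32 and 8.69 in control, where the arrays overlapped. Neither strain passed the test alone, with -1.05 (SE 0.38, adjusted p = 0.13) in C57BL6J and -0.92 (SE 0.38, adjusted p = 0.113) in 129S2SvPAs. In 129S2SvPAs it passed with array weights (-1.28, adjusted p = 0.0084) and without 129S2SvPAs control replicate 3 (-1.26, adjusted p = 0.0402), but was only -0.45 (adjusted p = 0.331) without 129S2SvPAs control replicate 2. In C57BL6J it passed with array weights (adjusted p = 0.0399), in a fit restricted to both groups compared (adjusted p = 0.0217) and without 129S2SvPAs control replicate 2 (adjusted p = 0.036). Averaged over the strains, Kdr fell by 0.99 (SE 0.27, 1.98-fold, adjusted p = 0.0188). Group means ran from C57BL6J control at the top through C57BL6J anti-GBM GN and 129S2SvPAs control to 129S2SvPAs anti-GBM GN, and only the first step was free of overlap. The array had 1 probe set for Kdr.

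Nrp1, the co-receptor that VEGF-A shares with semaphorins, was at 10.93, 10.89 and 10.63 in C57BL6J anti-GBM GN, against 11.54, 11.96 and 11.52 in C57BL6J control. In 129S2SvPAs it was at 10.41, 10.68 and 10.28 in anti-GBM GN and at 11.18, 11.89 and 10.80 in control. The groups did not overlap in either strain. On average Nrp1 fell by 0.85 (SE 0.17, 1.80-fold, adjusted p = 0.00487). In 129S2SvPAs it fell by 0.83 (SE 0.25, adjusted p = 0.0355), and in C57BL6J the value was -0.86 (SE 0.25, adjusted p = 0.0642). The other 3 Nrp1 probe sets gave average responses of -1.02, -0.98 and -0.83, with adjusted p = 0.00914, 0.0201 and 0.0125 over all probe sets. The call in 129S2SvPAs did not hold with the mean of the probe sets (adjusted p = 0.0672), without a filter on low values (adjusted p = 0.0736), in a fit restricted to both groups compared (adjusted p = 0.129) or with the proximal tubule covariate (adjusted p = 0.542), where the value was still -0.80. With the endothelial covariate it was -1.76 (adjusted p = 0.00103). It was also lost without 129S2SvPAs anti-GBM GN replicate 1 (adjusted p = 0.0705) or 3 (adjusted p = 0.104), without 129S2SvPAs control replicate 1 (adjusted p = 0.065) or 2 (-0.53, adjusted p = 0.0891), and without C57BL6J anti-GBM GN replicate 2 (adjusted p = 0.0514). In C57BL6J, Nrp1 passed with the replicate number as a block (adjusted p = 0.016) and in 6 other settings, with adjusted p between 0.000706 and 0.0491.

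Flt1 had 8.97, 8.94 and 8.58 log2 in C57BL6J anti-GBM GN, against 8.32, 9.19 and 8.97 in C57BL6J control. In 129S2SvPAs it had 8.91, 8.51 and 8.12 in anti-GBM GN and 7.64, 8.67 and 7.04 in control. The arrays overlapped in both strains, and no contrast of Flt1 passed. The difference was 0.00 (SE 0.38, adjusted p = 0.999) in C57BL6J, with a 95% interval of -0.83 to 0.83, and 0.73 (SE 0.38, adjusted p = 0.207) in 129S2SvPAs. Without 129S2SvPAs control replicate 2, whose endothelial markers were the highest of its group, the 129S2SvPAs value was 1.17 with adjusted p = 0.0265. Over all single arrays left out, the 129S2SvPAs value ran from 0.36 to 1.17. The other 3 Flt1 probe sets gave average responses between 0.35 and 0.45, close to the 0.37 (SE 0.27) of the first.

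The log2 ratio of Kdr to Flt1 set both receptors against each other on the same array. It was 0.73, 0.77 and 0.80 (lowest, median and highest) in C57BL6J anti-GBM GN and 1.65, 1.74 and 2.08 in C57BL6J control. In 129S2SvPAs it was -0.19, -0.05 and 0.09 in anti-GBM GN, against 1.49, 1.65 and 1.65 in control. The change was -1.06 in C57BL6J and -1.65 in 129S2SvPAs, with the groups apart in both strains (exact permutation test within strains, 2-sided, p = 0.005, the smallest that 400 relabellings can give; adjusted p = 0.005 over 3 ratios, the third of Pgf to Vegfa, not given since Pgf was at the floor). This ratio was chosen after the values of both genes had been seen, so a small p-value was likely beforehand and adds no support. Leaving out each array in turn kept the average change between -1.40 and -1.29.

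**Figure D2:**
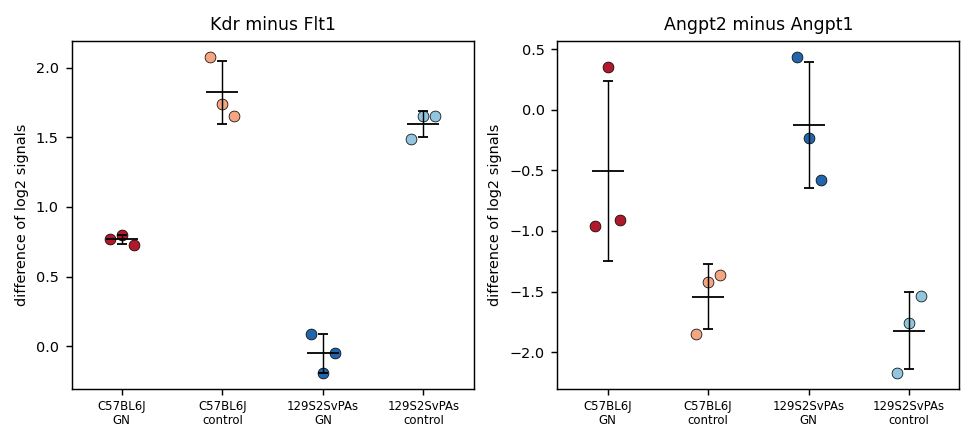
Difference of log2 signals on each array for Kdr minus Flt1 (left) and Angpt2 minus Angpt1 (right), by group (x axis; GN is anti-GBM GN), with the mean and SD (n = 3). In each strain every anti-GBM GN array lies below every control array on the left and above every control array on the right.

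The angiopoietin ligands went in opposite directions by their values, of which Angpt1 passed the test. Angpt1 was at 4.88, 5.96 and 6 log2 in 129S2SvPAs anti-GBM GN, against 7.13, 6.69 and 6.49 in 129S2SvPAs control. In C57BL6J it was at 6.02, 5.95 and 6.02 in anti-GBM GN and at 6.68, 6.49 and 6.29 in control. No arrays overlapped in either strain. Angpt1 fell by 1.16 in 129S2SvPAs (SE 0.27, 2.23-fold, adjusted p = 0.0126) and by 0.82 on average (SE 0.19, adjusted p = 0.00992), and the value in C57BL6J was -0.49 (SE 0.27, adjusted p = 0.349). The lowest value belonged to replicate 1 of 129S2SvPAs anti-GBM GN, the array that stood apart; without it the change in 129S2SvPAs was -0.79 and still past the threshold. The call in 129S2SvPAs was lost without 129S2SvPAs control replicate 1 (-0.98, adjusted p = 0.0511), in a fit restricted to both groups compared (adjusted p = 0.0887), and with the tubule (adjusted p = 0.388) or endothelial (adjusted p = 0.137) covariate, where the values were -1.20 and -1.33. The second Angpt1 probe set was below the table median on all 12 arrays and adds nothing.

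Angpt2 was at 5.32, 5.73 and 5.42 in 129S2SvPAs anti-GBM GN, against 4.96, 4.93 and 4.95 in 129S2SvPAs control, with no overlap. In C57BL6J it was at 5.06, 6.30 and 5.11 in anti-GBM GN and at 4.83, 5.07 and 4.93 in control, where replicate 2 of anti-GBM GN alone was high. The average response was 0.55 (SE 0.19, adjusted p = 0.0608), which missed the threshold. The C57BL6J value of 0.55 (SE 0.27, adjusted p = 0.289) was 0.14 without that replicate. The spread of this 1 array enters every contrast. Without it the 129S2SvPAs value of 0.54 had adjusted p = 0.0141, where it had adjusted p = 0.198 with all arrays, and the average was 0.34 with adjusted p = 0.0284. The average also passed without C57BL6J anti-GBM GN replicate 1 (0.65, adjusted p = 0.0341) or 3 (0.64, adjusted p = 0.0378), with array weights (0.71, adjusted p = 0.0161) and with the replicate block (adjusted p = 0.0381).

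Set against each other on the same arrays, the log2 ratio of Angpt2 to Angpt1 was higher in anti-GBM GN by 1.04 in C57BL6J and by 1.70 in 129S2SvPAs. It ran from -0.58 to 0.44 in 129S2SvPAs anti-GBM GN and from -2.17 to -1.54 in 129S2SvPAs control. In C57BL6J it ran from -0.96 to 0.35 in anti-GBM GN (median -0.91) and from -1.85 to -1.36 in control (median -1.42). The value of 0.35 belonged to replicate 2, the single array with high Angpt2, which enlarges the change in C57BL6J. Leaving out each array in turn kept the average change between 1.15 and 1.48. Anti-GBM GN and control did not overlap in either strain (exact permutation test within strains, p = 0.005, the smallest possible, adjusted p = 0.005 over 3 ratios). The ratio joins Angpt1, whose arrays were already apart in both strains, with Angpt2, whose means went the other way. The tests were also chosen with earlier results of these data known. A small p-value was thus likely beforehand and adds no support. With the mean of all probe sets of each gene, which takes in a probe set of Angpt1 and one of Angpt2 at the floor, the average change was 0.74 instead of 1.37.

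The TIE receptors had higher means in anti-GBM GN, with overlap and without passing the test. Tek was at 10.27, 10.34 and 9.47 in C57BL6J anti-GBM GN, against 9.35, 10.36 and 9.58 in C57BL6J control. In 129S2SvPAs it was at 9.56, 10.07 and 9.89 in anti-GBM GN and at 8.83, 9.93 and 8.29 in control. The average response of Tek was 0.54 (SE 0.29, adjusted p = 0.194). Tie1 was at 6.88, 7.14 and 6.76 in C57BL6J anti-GBM GN, against 5.93, 6.99 and 6.71 in C57BL6J control. In 129S2SvPAs it was at 7.17, 6.57 and 6.43 in anti-GBM GN and at 5.4, 6.43 and 5.27 in control, so the groups there touched at 6.43. The average response of Tie1 was 0.70 (SE 0.24, adjusted p = 0.0545), and in 129S2SvPAs the value was 1.02 (SE 0.34, adjusted p = 0.0595). Without 129S2SvPAs control replicate 2, the high array of its group for both genes, the average responses were 0.77 for Tek (adjusted p = 0.0373) and 0.89 for Tie1 (adjusted p = 0.0118). Over all single arrays left out, they ran from 0.36 to 0.77 for Tek and from 0.55 to 0.89 for Tie1. Tie1 also passed on average without C57BL6J control replicate 2 (0.82, adjusted p = 0.041), with the filter at the 75th percentile (adjusted p = 0.0364) and with the replicate block (adjusted p = 0.0475).

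Ordered by their group means, Nrp1, Flt1, Tek and Tie1 overlapped at every step between neighbouring groups. For Angpt1 the arrays were apart only between C57BL6J anti-GBM GN and C57BL6J control, and for Angpt2 only between the 129S2SvPAs anti-GBM GN group and the 129S2SvPAs control group, its neighbour in the order.

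Over the 9 genes, none passed in C57BL6J, where 7.09% of all genes tested passed in either direction. That limma fit did not pair the arrays, and with the replicate block Nrp1 passed in C57BL6J (adjusted p = 0.016). In 129S2SvPAs 3 fell and none rose, against 9.77% of all genes that fell and 10.6% that rose. On average over the strains 4 fell and none rose, against 13.6% and 13% of all genes. The median change of the 9 was 0.00 in C57BL6J, -0.01 in 129S2SvPAs and 0.08 on average, beside -0.03, 0.00 and -0.02 for all genes tested. The arrays of anti-GBM GN lay entirely below those of control for Kdr, Nrp1 and Angpt1 in C57BL6J and for Vegfa, Nrp1 and Angpt1 in 129S2SvPAs, and entirely above them for Pgf in C57BL6J, at the floor, and Angpt2 in 129S2SvPAs. Among all genes tested, 16% lay entirely below and 13.2% entirely above in C57BL6J, and 16.1% and 16.4% in 129S2SvPAs. The 4 falls on average kept their calls when each of the 12 arrays was left out in turn. With the proximal tubule covariate they had adjusted p between 0.14 and 0.312 at values of -1.22 to -0.82, and 584 genes passed where 3170 had passed before.

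**Figure D3:**
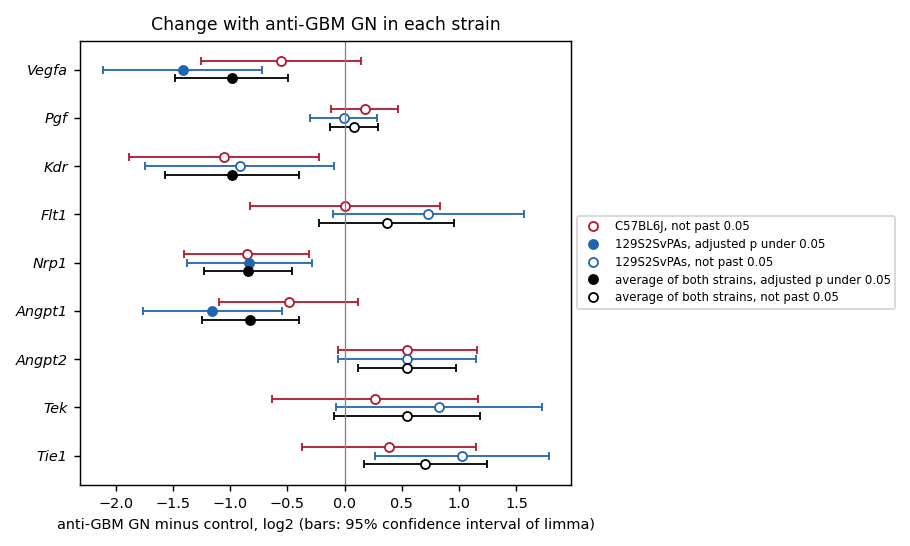
Change of the 9 genes with anti-GBM GN (x axis, log2) in C57BL6J, in 129S2SvPAs and on average, with 95% confidence intervals from limma. Filled points passed an adjusted p of 0.05, which Vegfa, Nrp1 and Angpt1 did in 129S2SvPAs and those genes and Kdr on average.

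Next, the strains were compared. None of the 9 genes passed between the strains in control or in anti-GBM GN, where 8.43% and 8.38% of all genes did. Kdr had the lowest p. The difference, 129S2SvPAs minus C57BL6J, was -1.27 in controls (SE 0.38, adjusted p = 0.0644) and -1.13 in anti-GBM GN (SE 0.38, adjusted p = 0.0988). The 129S2SvPAs arrays lay entirely below the C57BL6J arrays in both conditions, as they did for 14.3% of all genes in controls and 12.6% in anti-GBM GN. In controls it passed with the filter at the 75th percentile (adjusted p = 0.0423), array weights (adjusted p = 0.0388), the replicate block (adjusted p = 0.0424), without 129S2SvPAs anti-GBM GN replicate 1 (adjusted p = 0.0471) and without 129S2SvPAs control replicate 2 (-1.74, adjusted p = 0.00542). In anti-GBM GN it passed with array weights (-1.39, adjusted p = 0.00684) and without 129S2SvPAs control replicate 2 (adjusted p = 0.0239). With the endothelial covariate the difference was -0.15 in controls (adjusted p = 0.933) and -0.60 in anti-GBM GN (adjusted p = 0.342). Flt1 and Tie1 were at -1.04 (SE 0.38, adjusted p = 0.126) and -0.84 (SE 0.34, adjusted p = 0.174) in the same comparison of controls, and at -1.49 (adjusted p = 0.0159) and -1.21 (adjusted p = 0.0398) without 129S2SvPAs control replicate 2. Over all single arrays left out, they ran from -1.49 to -0.67 for Flt1 and from -1.21 to -0.62 for Tie1. In these control arrays the endothelial markers were lower in 129S2SvPAs too, with 7 of 17 called lower and none higher. So were the podocyte markers, with 10 of 14 called lower in controls (median -1.49) and none higher. In anti-GBM GN 6 of these 14 were called lower in 129S2SvPAs (median -0.94) and none higher. The part of either cell type in the strain differences was not tested beyond the endothelial covariate. For Vegfa the strains differed by -0.08 (SE 0.32) in controls and by -0.94 (SE 0.32, adjusted p = 0.105) in anti-GBM GN, where the arrays did not overlap. That value passed in a fit of only those 2 groups (adjusted p = 0.0444) and without 129S2SvPAs control replicate 1 (adjusted p = 0.0337) or 3 (adjusted p = 0.0441). A single Nrp1 probe set, not the one that stands for the gene, passed between the strains, with -1.59 in controls (SE 0.28, adjusted p = 0.00608 over all probe sets) and -1.05 in anti-GBM GN (adjusted p = 0.0475), where the main one gave -0.38 and -0.36. Angpt2 was at 5.49 in anti-GBM GN in both strains and at 4.95 in 129S2SvPAs control and 4.94 in C57BL6J control.

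The difference of the responses, 129S2SvPAs minus C57BL6J, tests whether the strains reacted differently. It passed for none of the 9 genes in limma, where 0.562% of all genes passed. The largest in size was Vegfa at -0.86 (SE 0.45, adjusted p = 0.538), with a 95% interval of -1.85 to 0.13. For Angpt1 it was -0.67, with an interval of -1.52 to 0.19, and for Flt1 0.73, with an interval of -0.45 to 1.90. Leaving out 1 array moved these to as little as -0.48 for Vegfa (without 129S2SvPAs control replicate 1), -0.30 for Angpt1 (without 129S2SvPAs anti-GBM GN replicate 1) and 0.36 for Flt1 (without 129S2SvPAs control replicate 3), and to as much as -1.20, -0.86 and 1.17. The responses of Nrp1 and Angpt2 differed by 0.02 and 0.00 between the strains, with intervals of -0.75 to 0.79 and -0.86 to 0.85. Calls made in 129S2SvPAs and not in C57BL6J are thus not shown to differ between the strains.

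On average over the strains, most endothelial markers went up with anti-GBM GN while Kdr and Nrp1 fell. Of the 17 markers tested (none of the 9 genes is among them), 12 rose on average and 1 fell. Among all genes tested 13% rose and 13.6% fell. The fall was in Ehd3, which encodes an endocytic protein of glomerular endothelium. The median average response of the 17 was 1.03, beside -0.02 for all genes. The calls came mainly from 129S2SvPAs, with 12 higher and 1 lower and a median of 1.38, against 10.6% and 9.77% of all genes. In C57BL6J only 2 were called higher and 1 lower, with a median of 0.68, where 7.09% of all genes passed in either direction. With the marker mean per array as a covariate, which itself differs between the groups, Kdr was lower by a larger amount, at -1.89 on average (adjusted p = 0.00613), -1.66 in C57BL6J (adjusted p = 0.0138) and -2.12 in 129S2SvPAs (adjusted p = 0.0199). Nrp1 was at -1.55 on average (adjusted p = 0.000247). Under the same covariate Flt1 was at -0.58 (adjusted p = 0.287) and Tie1 at -0.03 (adjusted p = 0.98). Tek was at -0.70 (adjusted p = 0.0101), where it was at 0.54 without the covariate. Vegfa and Angpt1 kept values of -1.16 and -0.96 with adjusted p = 0.119 and 0.139. Mesangial markers also rose in 5 of 9 on average, and platelet markers in 4 of 5, against 13% of all genes tested. Pf4 was among the platelet markers that rose (platelets are known to carry angiopoietin 1 and VEGF-A). Several platelet markers were at the floor on some arrays, with Pf4 down to 2.86, so their sizes are not given. Gp9 was above the table median on only 3 arrays and was tested only through those. The part of mesangial cells and platelets in the values of the 9 genes was not tested.

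**Figure D4:**
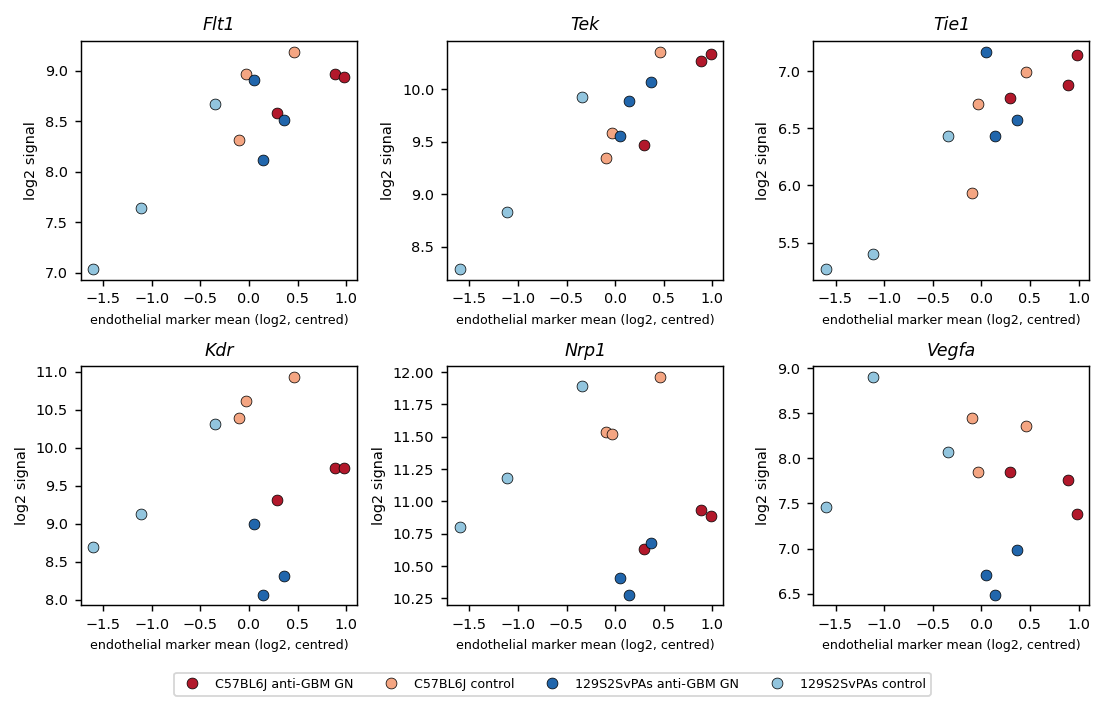
Log2 signal of 6 of the genes (y axis) against the mean of 17 endothelial markers on the same array (x axis, log2, each marker centred on its 12-array mean), with 12 arrays coloured by group. In the Nrp1 panel the anti-GBM GN arrays of each strain lie below its control arrays, and the 129S2SvPAs ones also lie to their right, while in the panels of Flt1, Tek and Tie1 the 2 lowest arrays are the 129S2SvPAs controls with the lowest marker means.

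Other genes of the pathway were taken from 6 lists, and named by the lowest p in the average response. The counts of each list stand beside 13% of all genes tested that rose on average and 13.6% that fell. Among other ligands and receptors, 3 of 6 tested rose on average and none fell. Nrp2, the neuropilin that favours VEGF-C and class 3 semaphorins, rose by 2.04 (SE 0.19, adjusted p = 3.37e-05), to 7.69 ± 0.25 in 129S2SvPAs anti-GBM GN against 5.14 ± 0.47 in its control, and to 6.86 ± 0.41 in C57BL6J anti-GBM GN against 5.33 ± 0.29 in its control (SD, n = 3 each). Nrp1 and Nrp2 thus moved in opposite directions. Vegfc, a ligand of VEGFR3, rose by 0.92 (SE 0.13), and Flt4, which encodes VEGFR3, by 0.89 (SE 0.25, adjusted p = 0.0224). Vegfb, another ligand of VEGFR1, was at -0.21 (SE 0.11, adjusted p = 0.191). The list's median was 0.50.

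Extracellular proteins that bind or block VEGF rose in 5 of 6, with a median of 2.21. The secreted protease and VEGF binder Adamts1 rose by 3.03 (SE 0.26), to 10.38 ± 0.27 in 129S2SvPAs anti-GBM GN against 7.05 ± 0.71 in its control (SD, n = 3 each). Connective tissue growth factor (Ccn2) rose by 2.51 (SE 0.33), thrombospondin 2 (Thbs2) by 2.42 (SE 0.27) and the matrix protein Sparc by 1.99 (SE 0.16).

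Endothelial genes that VEGF is known to induce showed both directions, with 7 of 11 higher and 2 lower on average and a median of 1.06. The nitric oxide synthase Nos3 rose by 3.29 (SE 0.23) and the nuclear receptor Nr4a1 by 2.22 (SE 0.17). The apelin receptor Aplnr also rose, to 5.21 ± 0.23 in 129S2SvPAs anti-GBM GN and 7.12 ± 0.44 in C57BL6J anti-GBM GN, against control signals near the floor, at 2.73 ± 0.45 in 129S2SvPAs and 3.28 ± 0.95 in C57BL6J (SD, n = 3 each), so no size is given. The 2 that fell were Esm1, a proteoglycan of tip cells, by 1.38 (SE 0.13), and the Notch ligand Dll4, by 0.92 (adjusted p = 0.00402), which was named after its value was seen. Esm1 was also called in the difference of responses, at 2.44 (SE 0.26, adjusted p = 0.0028). It was at 5.36 ± 0.17 in 129S2SvPAs anti-GBM GN and 5.52 ± 0.26 in 129S2SvPAs control, and at 5.16 ± 0.10 in C57BL6J anti-GBM GN and 7.76 ± 0.32 in C57BL6J control (SD, n = 3 each).

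**Figure D5:**
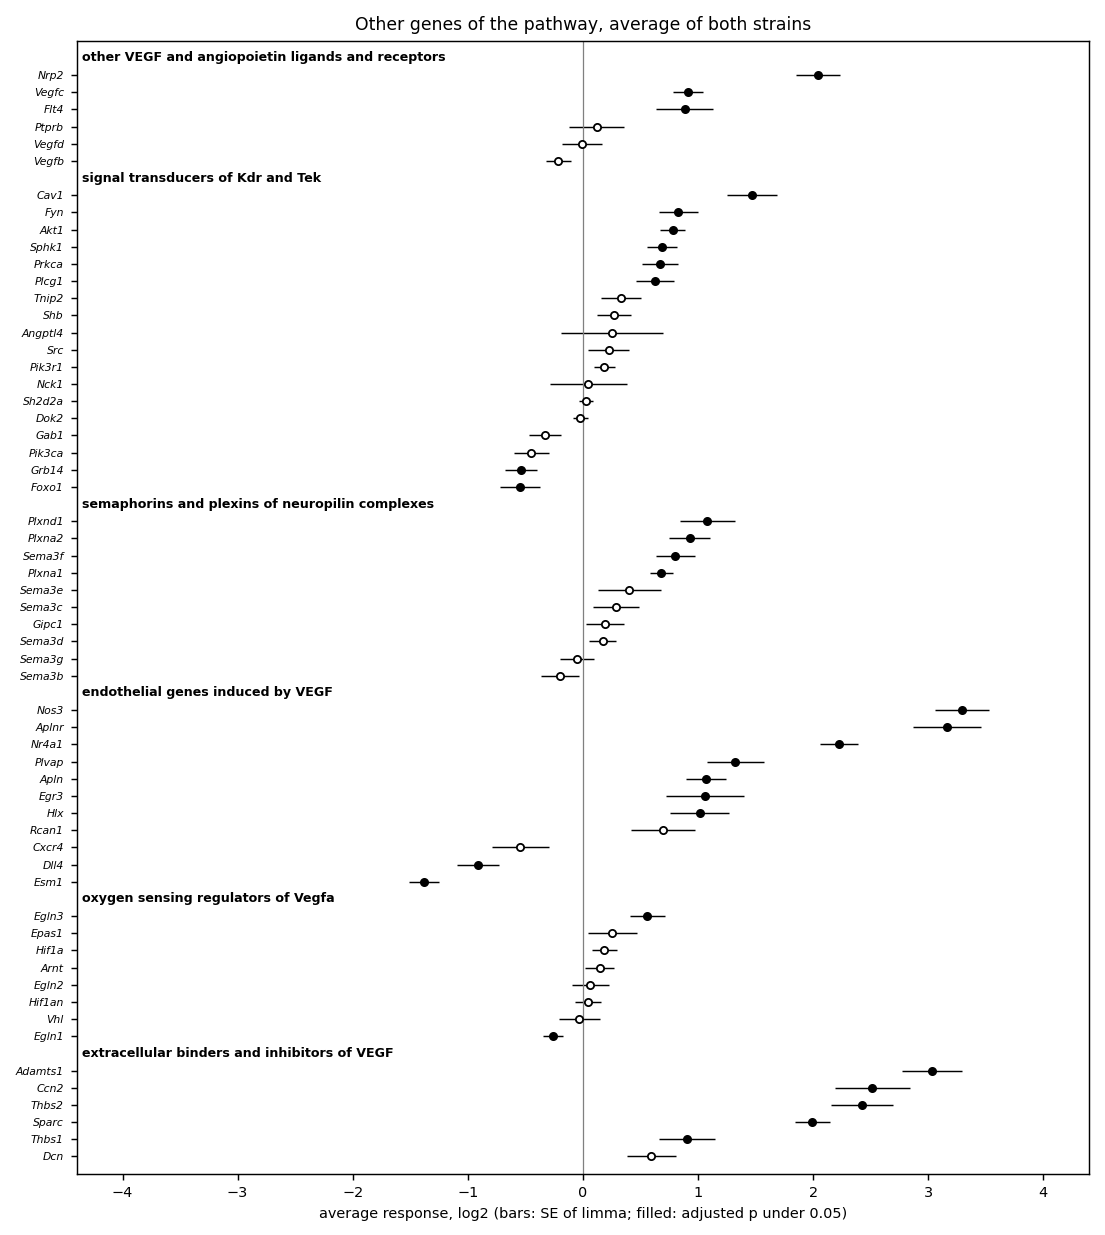
Average response over both strains (x axis, log2, with SE) of each tested gene of the 6 pathway lists (rows), filled where the adjusted p was under 0.05. The binders and inhibitors of VEGF lie to the right, from Dcn to Adamts1 at 3.03, while the oxygen sensing genes lie near 0.

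Downstream of VEGFR2 and TIE2, 6 of 18 signalling genes rose on average and 2 fell, with a median of 0.24. The falls were near the share over all genes. Caveolin 1 (Cav1), a membrane scaffold, rose by 1.47 (SE 0.22), and the kinases Fyn and Akt1 by 0.83 (SE 0.17) and 0.78 (SE 0.11). The falls were in the adaptor Grb14 (-0.54) and the transcription factor Foxo1 (-0.55), both named after their values were seen. The sphingosine kinase Sphk1 was at 4.51 ± 0.44 in 129S2SvPAs anti-GBM GN and at the floor in the other 3 groups, with 2.99 ± 0.07 in 129S2SvPAs control, 2.75 ± 0.16 in C57BL6J anti-GBM GN and 2.89 ± 0.01 in C57BL6J control (SD, n = 3 each). It met the filter on low values only through the group where it was high. Its calls, on average and in the difference of responses, are therefore not read as results, and no size is given. It is among the 6 counted as rising. Of 10 semaphorin and plexin genes tested 4 rose and none fell, with a median of 0.35. They were the semaphorin receptors Plxnd1 (1.08, SE 0.24), Plxna2 (0.93, SE 0.18) and Plxna1 (0.68, SE 0.10), and Sema3f (0.80, SE 0.17), a ligand of neuropilin 2.

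The regulators that couple Vegfa to oxygen moved by small amounts on average. Of 8 tested, Egln3, a prolyl hydroxylase induced by hypoxia, rose by 0.56 on average (SE 0.15, adjusted p = 0.0181), and Egln1, the main hydroxylase of this family, fell by 0.26 (SE 0.09, adjusted p = 0.047). Egln3 rose by 0.88 in C57BL6J (adjusted p = 0.0312) and was at 0.24 in 129S2SvPAs (adjusted p = 0.483). Its difference of responses was not called (adjusted p = 0.478). The hypoxia-inducible factor genes Hif1a and Epas1 were at 0.19 (SE 0.11, adjusted p = 0.227) and 0.26 (SE 0.21, adjusted p = 0.416). The list's median was 0.11, and its 1 rise and 1 fall among 8 were near the shares over all genes.

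For each of the 9, the genes whose values over the 12 arrays were most alike were taken by Pearson's r over all genes tested, as a description, since the arrays fall into 4 groups and share their preparation. Vegfa was most like Gas1 (r = 0.953) and Fam13a (0.920). Kdr was most like Stard8 and Cavin2 (0.965 each), and Nrp1 most like Lifr (0.977) and Ankrd44 (0.973). Angpt1 was nearest to Lrrc19 (0.970) and Zc3h14 (0.968). The nearest genes of Angpt2 were Prkar2b (0.932) and Il6 (0.925). For the remaining receptors these were Klf7 and Stard9 for Flt1 (0.951 each), Epas1 (0.964) and Slc43a3 (0.960) for Tek, and Elk4 (0.958) and Rasip1 (0.954) for Tie1. Rasip1 is 1 of the 17 endothelial markers used here. The nearest genes of Pgf, Pisd-ps3 (0.916) and Slc2a1 (0.891), were found over values at the floor. None of the 9 had another of the 9 among its 2 nearest genes.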

How the data were processed

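RNA from isolated glomeruli was labelled with biotin and hybridised to Affymetrix arrays, per the labels' protocols. The deposited values are log2 signals of 45037 probe sets, rounded to 2 decimals. The submitters' processing notes name MAS5 and GCRMA, without version or role, and the range of the values gave the log2 scale. The platform annotation gave 1 symbol to 34945 probe sets, several to 932 and none to 9160. Genes were fitted in R 4.3.3 with limma 3.58.1 (lmFit, eBayes) with 1 mean per group over all 12 arrays, 10.7 total degrees of freedom and Benjamini-Hochberg adjustment within each of 6 contrasts, called at an adjusted p under 0.05. The fit was tested on simulated data. Whether the mice came from separate litters or batches is not given, the number of arrays limits the precision, and no array dates were given, so no batch was tested. Replicates 1 and 2 held identical values at 11% of probe sets in C57BL6J anti-GBM GN, 20.5% in 129S2SvPAs anti-GBM GN and 22.3% in 129S2SvPAs control. Replicate 3 of these groups shared only 1.2% to 3.82% with them. In C57BL6J control all pairs shared 12.4% to 18.2%. Whether replicate 3 was run or processed apart was not tested. The labels do not say what a replicate number shares. Deviations of same-numbered arrays from their group means correlated at 0.208 to 0.33 between C57BL6J anti-GBM GN and control and at 0.239 to 0.284 between the control strains, so the numbers were taken to pair these groups. In the other group pairs at least 1 correlation was not over 0.1 (lowest -0.38). The main fit and the permutation tests did not use this pairing. The block, run as an alternative, was fitted over all 12 arrays, and so also over groups that the correlations did not pair. The 9 genes, the lists and the tests were chosen with earlier results of these data known. Named pathway genes are, per list, the 4 with the lowest p in the average response and any called in the difference of responses. Alternatives are given in the closing section. Sequences are from RefSeq (GRCm38.p6). Figures were drawn with matplotlib 3.10.9.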

Additional observations from a re-analysis of the deposited data

How the results depend on the processing

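The 7 called values of the 9 genes kept their sign in all 157 alternatives run, and 22 of these lost the call, as given in the report; 61 values that had not passed changed sign and 47 passed, 5 of them with the sign changed (Tek with the endothelial covariate). Signal near the floor limits Pgf, and 3 arrays a group limit the rest. The filter at the 75th percentile left out Pgf and Angpt2. The cause of the changes below was not tested. The log2 ratios of Kdr to Flt1 and of Angpt2 to Angpt1 kept their sign, with exact p up to 0.015, p-values that add no support, as given above.

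With the replicate block, 1 of the 9 genes was called in C57BL6J (Nrp1) and 1 between control strains (Kdr), and 33 genes in the difference of responses. On average Angpt2 and Tie1 passed as well, and no other call of the 9 genes changed.

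With array weights, 3827 genes were called in 129S2SvPAs, 2022 in C57BL6J (2 of the 9), 286 in the difference of responses, 2256 between strains in anti-GBM GN (1 of the 9) and 1601 between control strains (1 of the 9). The response of Flt1 in C57BL6J was -0.0041, the differences of responses of Kdr and Nrp1 were -0.25 and -0.0078, Pgf differed between strains in anti-GBM GN by -0.0080, and Angpt2 and Vegfa differed between control strains by -0.017 and 0.098. With arrays shifted to one median, Flt1 in C57BL6J was -0.0033 and Angpt2 between control strains -0.023.

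With the endothelial covariate, 588 genes were called in 129S2SvPAs, 463 in C57BL6J (3 of the 9), 733 on average, 22 in the difference of responses, 588 between strains in anti-GBM GN (1 of the 9) and 235 between control strains (1 of the 9). Responses were -0.53 for Flt1, 0.17 for Pgf and -0.83 for Tek in 129S2SvPAs, -0.63 for Flt1, -0.57 for Tek and -0.11 for Tie1 in C57BL6J, and -0.58, -0.70 and -0.035 for those 3 on average. Differences of responses were -0.46 for Kdr, -0.44 for Nrp1 and -0.26 for Tek. Strain differences in anti-GBM GN were 0.24 for Flt1, 0.054 for Nrp1, -0.041 for Pgf, 0.55 for Tek and 0.23 for Tie1, and in controls 0.14 for Flt1, 0.49 for Nrp1, 0.81 for Tek, 0.077 for Tie1 and 0.14 for Vegfa.

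With the proximal tubule covariate, 85 genes were called in 129S2SvPAs (0 of the 9), 584 on average (0 of the 9), 4 in the difference of responses and 307 between strains in anti-GBM GN. Pgf in 129S2SvPAs was 0.088, the difference of responses of Angpt2 0.20, Tie1 between strains in anti-GBM GN 0.034 and Angpt2 between control strains -0.035. In fits of only the groups compared, 1415 genes were called in 129S2SvPAs (0 of the 9), 578 between strains in anti-GBM GN (1 of the 9), and 2 of the 9 in C57BL6J. The filter at the 75th percentile called 1 of the 9 in C57BL6J and 1 between control strains, and 18 genes in the difference of responses.

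Leaving out each array in turn called 1768 to 2649 genes in 129S2SvPAs (1 to 5 of the 9), 407 to 1141 in C57BL6J (0 to 2 of the 9), 15 to 136 in the difference of responses, 612 to 1117 between strains in anti-GBM GN (0 to 1 of the 9) and 503 to 1288 between control strains (0 to 3 of the 9). Values that changed sign ranged from -0.092 to 0.097 for Pgf in 129S2SvPAs, from -0.25 to 0.19 for Flt1 in C57BL6J, and in the difference of responses from -0.22 to 0.40 for Angpt2, from -0.21 to 0.61 for Kdr and from -0.22 to 0.32 for Nrp1. Between strains they ranged from -0.045 to 0.10 for Pgf in anti-GBM GN, and in controls from -0.053 to 0.067 for Angpt2 and from -0.46 to 0.27 for Vegfa.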
